A study of Mus musculus with 4 samples.

Results

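Macrophages were described here as a small population of cells found in mouse embryoid bodies, which are aggregates of embryonic stem cells left to differentiate, at day 9. A cell counted as a macrophage when 4 or more of 6 genes had a unique molecular identifier (UMI, a tag that marks a single captured RNA molecule): Tyrobp, Csf1r, Cx3cr1, Laptm5, C1qa and C1qb. The rule was applied to kept cells, those with 500 or more detected genes and no more than 10% of counts from mitochondrial genes. It took 75 cells out of 8876 kept cells and 10090 cells in the deposited table. The study compared embryoid bodies grown from control mouse embryonic stem cells with embryoid bodies from stem cells given a pulse of DUX, a transcription factor of the early mouse embryo. Each group had 2 single-cell libraries (10x Genomics), described in the series design as biological replicates. The length of the pulse, the way DUX was supplied and the strain of the stem cells were not given in the sources used here.

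Macrophages are the phagocytes of tissues, and in the embryo they appear early, first in the yolk sac and then in the tissues that blood progenitors reach. They depend on signalling through the receptor encoded by Csf1r, whose ligands are Csf1 and Il34, and their identity is set largely by the transcription factor PU.1, encoded by Spi1. Their surface receptors for antibodies and lipids signal through small adaptor proteins, DAP12 (Tyrobp) and the Fc receptor gamma chain (Fcer1g), and C1q, built of the C1qa, C1qb and C1qc chains, starts the classical complement pathway.

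The promoters of these genes are shown because the genes were high in the same cells and PU.1 is known to bind purine-rich sites such as GAGGAA. The 6 rule genes and the 15 genes with the largest differences named below made 21 genes, of which 16 had an entry in the RefSeq table (build GRCm38.p6). In the 250 bases before the start of transcription, GAGGAA or its reverse complement TTCCTC occurred for 9 of the 16 genes (56.2%), compared with 25.9% of the 27025 genes in the table. The genes are few and were chosen by their levels in these cells, so the shares are a description, and a match in such a window is not a binding site. The windows below are printed 5′ to 3′ on the strand of the gene, with each match in capitals. Windows that overlapped an annotated exon are not printed. They are, in order, chr4:136886201-136886450 on the minus strand, chr17:48346151-48346400 on the plus strand, chr3:96293970-96294219 on the minus strand, chr3:95526536-95526785 on the plus strand, and chrX:9469325-9469574 on the minus strand. Cybb, the last, is given as a window in which these letters did not occur. Also left out, though free of exon overlap, were a window of F13a1 with GAGGAA and those of Tifab and Mpeg1 with neither sequence.
C1qb: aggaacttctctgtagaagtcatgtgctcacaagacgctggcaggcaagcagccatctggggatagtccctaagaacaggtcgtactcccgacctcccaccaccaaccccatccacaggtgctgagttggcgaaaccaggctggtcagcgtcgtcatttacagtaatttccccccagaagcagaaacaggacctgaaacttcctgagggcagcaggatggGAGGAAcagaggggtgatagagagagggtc
Trem2: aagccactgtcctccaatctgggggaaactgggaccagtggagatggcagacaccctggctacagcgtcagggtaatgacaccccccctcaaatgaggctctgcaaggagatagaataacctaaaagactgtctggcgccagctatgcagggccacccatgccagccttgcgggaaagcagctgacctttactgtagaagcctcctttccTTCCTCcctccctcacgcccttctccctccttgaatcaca
Fcgr1: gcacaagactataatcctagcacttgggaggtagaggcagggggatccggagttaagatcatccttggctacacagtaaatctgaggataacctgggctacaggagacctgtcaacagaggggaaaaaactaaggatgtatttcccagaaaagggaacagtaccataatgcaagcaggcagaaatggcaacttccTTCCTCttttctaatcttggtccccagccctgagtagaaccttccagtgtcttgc
Ctss: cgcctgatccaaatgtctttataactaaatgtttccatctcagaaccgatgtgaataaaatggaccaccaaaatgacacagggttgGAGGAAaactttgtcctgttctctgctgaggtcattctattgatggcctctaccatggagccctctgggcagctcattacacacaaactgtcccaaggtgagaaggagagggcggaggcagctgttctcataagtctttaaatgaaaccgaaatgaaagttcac
Cybb: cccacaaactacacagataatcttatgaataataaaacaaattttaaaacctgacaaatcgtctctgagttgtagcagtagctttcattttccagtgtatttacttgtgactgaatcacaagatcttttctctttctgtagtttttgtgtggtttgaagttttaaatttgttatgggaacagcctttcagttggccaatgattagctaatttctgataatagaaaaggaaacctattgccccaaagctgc

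All 75 macrophages came from the DUX-pulsed embryoid bodies. DUX-pulsed replicate 1 held 59 among 2063 kept cells, a share of 2.86% (exact Clopper-Pearson 95% interval 2.18 to 3.67%). Replicate 2 held 16 among 1353, a share of 1.18% (0.677 to 1.91%). Control replicates 1 and 2 held 0 of 2824 and 0 of 2636 kept cells, which allows shares of up to 0.106% and 0.114% by the limit of 3 counts and up to 0.131% and 0.140% by the exact interval. The intervals cover counting error only. The replicates of the DUX-pulsed group differed from each other by more than that error, and both lay above the limits of both controls. The mean share was 2.02% ± 1.19 (SD, n = 2) in the DUX-pulsed group. The exact two-sided permutation test over libraries gave p = 0.33, the smallest value that 2 against 2 libraries allow.

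The controls did make blood cells. Cells of the megakaryocyte lineage (platelet precursors, by 4 or more of Ppbp, Itga2b, Gp9, Gp1bb, Gp6 and Treml1) numbered 25 and 10 in the DUX-pulsed replicates and 27 and 4 in the controls. Erythroid cells (by 4 or more of 6 genes that include Alas2, Klf1, Slc4a1, Epor and Hemgn) numbered 44 and 32 against 17 and 22. Of the cells in the macrophage, megakaryocyte-lineage and erythroid gates together, macrophages made up 46.1% of 128 and 27.6% of 58 in the DUX-pulsed replicates, and 0 of 44 and 0 of 26 in the controls. A count of 0 among so few cells allows a macrophage share of blood cells of up to 6.82% and 11.5% in controls 1 and 2 by the limit of 3 counts, and up to 8.04% and 13.2% by the exact interval.

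**Figure D1:**
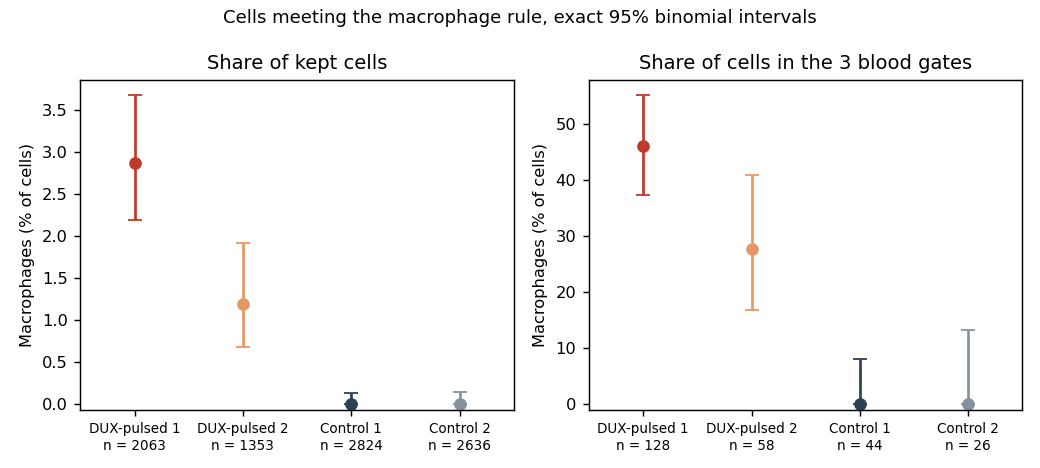
Macrophages as a percent of all kept cells (left) and of the cells in the macrophage, megakaryocyte-lineage and erythroid gates (right) in each library; points are shares and bars exact 95% binomial intervals. The DUX-pulsed libraries stand at 2.86% and 1.18% of kept cells and both control libraries at 0.

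The rule genes themselves chose the cells, so their levels are a description. Tyrobp, the DAP12 adaptor, had a UMI in 59 of 59 and 16 of 16 macrophages, with a median of 1556 and 1165 CPM per cell, CPM being the usual scaling of a count to the UMI total behind it. Cx3cr1, the fractalkine receptor of tissue macrophages and microglia, had a UMI in 58 and 15 cells and medians of 413 and 470 CPM. Csf1r was found in 58 and 16 cells and Laptm5, a lysosomal membrane protein of blood cells, in 59 and 15. C1qb was found in 51 and 11 cells, and C1qa in 38 and 7. So the receptor and adaptor genes were nearly universal among the cells, and C1q was the variable part of the rule: 8 of 59 and 4 of 16 cells had neither C1qa nor C1qb.

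Outside the macrophages the same genes were rare, Csf1r and Laptm5 least so. In the DUX-pulsed libraries, macrophages held 99.2% of all C1qa UMIs of kept cells, 99.1% of C1qb, 98.0% of Cx3cr1, 90.7% of Tyrobp, 75.2% of Laptm5 and 68.2% of Csf1r, in 3.38% and 2.0% of the UMIs of the 2 libraries. Among kept cells in none of the gates, called other kept cells below, 1.71% and 0.953% had a Tyrobp UMI and 0.320% and 0.556% a Cx3cr1 UMI, at median depths of 27709 and 27358 UMIs. The macrophages were deeper, with medians of 33558 and 44558 UMIs. With every cell thinned to 5000 UMIs, Tyrobp was seen in 100% and 86.7% of macrophages and in 0.583% and 0.103% of other kept cells. In the control libraries, whole, Cx3cr1 had 5 and 9 UMIs, C1qb 0 and 5, C1qa 0 and 1, and Tyrobp 39 and 1. The same genes had 1155 and 408, 3275 and 780, 606 and 150, and 3762 and 1031 UMIs in the DUX-pulsed libraries.

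**Figure D2:**
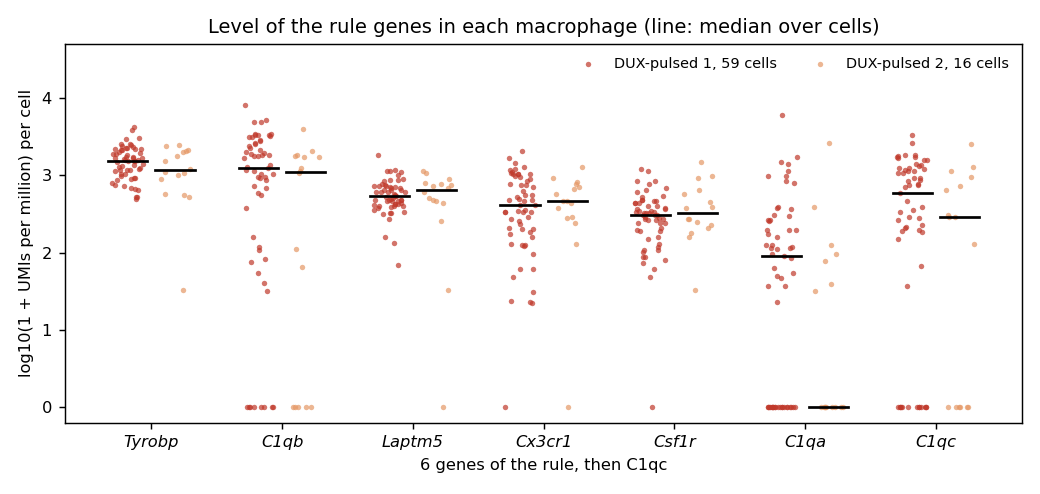
Level of the 6 rule genes and of C1qc in each of the 75 macrophages, as log10(1 + CPM), with the median over cells as a line; colours separate DUX-pulsed replicates 1 (59 cells) and 2 (16 cells). Tyrobp, Laptm5, Csf1r and Cx3cr1 are above 0 in nearly all cells, and C1qa and C1qc divide the cells into those with and without a UMI.

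In replicate 1, 9, 13 and 37 cells had 4, 5 and 6 markers, and in replicate 2, 6, 4 and 6 cells. Requiring 5 markers gave shares of 2.42% and 0.739% in replicates 1 and 2. Just below it, 8 and 3 cells of the DUX-pulsed libraries and 2 and 1 of the controls had exactly 3. These cells mostly carried Tyrobp (8 and 3 in the DUX-pulsed libraries, 2 and 0 in the controls) and Laptm5 (8 and 2, 2 and 1). C1qa had no UMI in any of them, and C1qb 1 UMI in 1 cell of each DUX-pulsed library. Both such cells of control 1 also had the blood cell genes Ptprc (2 to 8 UMIs), Spi1 (7 to 9) and Fcer1g (7 to 19). The cell of control 2 had Fcer1g and 218 UMIs of the platelet gene Pf4, without Ptprc or Spi1. A rule without the chromosome 4 genes C1qa, C1qb and Laptm5, requiring all of Tyrobp, Csf1r and Cx3cr1, took 58, 16, 0 and 0 cells in DUX-pulsed replicates 1 and 2 and controls 1 and 2. That rule was added after the data were seen. In replicate 2 its 16 cells were not all members, since a member with 31298 UMIs had no Cx3cr1 UMI.

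A few members carried genes of other lineages. In replicate 1, 2 macrophages also met the megakaryocyte-lineage gate and 1 the erythroid gate. The cardiomyocyte, mesenchyme, endoderm and erythroid lists together took over 1% of UMIs in 3 cells of replicate 1 and 1 cell of replicate 2. The last had 2.80% of its UMIs in mesenchyme genes and 0.016% in the 14 pan-leukocyte genes, compared with medians of 0.430% and 0.443% over the macrophages of replicates 1 and 2, so by these genes it goes against the label. Without the cells of another gate the DUX-pulsed share averaged 1.95%, and without those 4 cells 1.91%. No droplet barcode of a macrophage occurred in another library. No doublet caller was run, and the part of doublets in these cells was not tested.

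Genes that were not in the rule were then compared with other kept cells of the same 2 libraries. UMIs were summed over the cells of a class and library, and a log2 fold change with its standard error (SE) came from edgeR's quasi-likelihood test, adjusted by the Benjamini-Hochberg method over all genes at a threshold of 0.05. Levels below are CPM scaled by the TMM method, given for replicates 1 and 2 in that order. Of 16087 genes, 12.7% were higher in macrophages and 19.4% lower, and the median gene stood at -0.31. The macrophages were picked cell by cell for 6 genes, so genes that go with those in a cell had to be higher, and the tests describe how the picked cells differ. Fewer cells of a type and less RNA per cell cannot be told apart for the summed other kept cells.

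The 15 largest differences named by the rule were, in order, Adgre1, Ms4a6c, C1qc, Ms4a6b, Fcrls, Fcgr1, Ms4a6d, F13a1, Trem2, Ctss, Tifab, Fcgr2b, Aif1, Cybb and Mpeg1. Adgre1, which encodes the F4/80 antigen that defines mouse macrophages, stood at 106 and 82.2 CPM in macrophages and had 1 and 0 UMIs in the 1874 and 1259 other kept cells. Mpeg1, a pore-forming protein of phagocytes, stood at 73.0 and 94.8 CPM against 4 and 3 UMIs. Cybb, the catalytic subunit of the phagocyte NADPH oxidase, stood at 48.2 and 83.4 CPM against 4 and 1 UMIs. Of the 15, F13a1 would have entered the test without the macrophages; the others entered it through them and had to differ. DESeq2 called C1qc, F13a1, Trem2, Fcgr2b and Aif1 and none of the other genes named here as largest.

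Genes whose UMIs were most nearly confined to macrophages, among those with at least 500 UMIs in the DUX-pulsed libraries, were C1qc, Fcrls, Aif1, Ccl6, Cd28 and Cd14. C1qc stood at 667 and 426 CPM, with 99.0% of its UMIs in macrophages. It lies between C1qa and C1qb on chromosome 4 (C1qc at chr4:136889804-136893065, mm10), all 3 on the minus strand. Fcrls, an Fc receptor-like gene typical of microglia, stood at 185 and 222 CPM. Cd28, best known as a T cell co-receptor, stood at 145 and 203 CPM and had a UMI in 40 and 12 macrophages. The T cell gene Cd3g had 0 UMIs in them. The list of T, B and NK lymphoid genes that holds it had 36 and 17 UMIs in the macrophages of replicates 1 and 2. Of its 2 genes tested, Cd79b was higher than in other kept cells, having entered the test through the macrophages, and Cd3g did not pass. DESeq2 called neither Fcrls, Ccl6, Cd28 nor Cd14.

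Genes shared by all white blood cells rose as a group. All 14 measured pan-leukocyte genes were higher than in other kept cells, 13 of them testable without the macrophages. Coro1a, an actin regulator of leukocytes, stood at 834 and 689 CPM compared with 3.38 and 2.12, a log2 fold change of 8.15 (SE 0.29). Ptprc, the pan-leukocyte antigen CD45, stood at 139 and 201 CPM compared with 0.369 and 0.233, and 57 of 59 and 15 of 16 macrophages had a Ptprc UMI. DESeq2, run as an alternative, did not call Ptprc: its dispersion estimate stood at the upper limit of 17 there, as for 2278 of all genes. Against megakaryocyte-lineage cells 12 of the 14 were higher (7 with DESeq2), where 10.2% of all 16099 genes tested were higher and 7.69% lower. Against endothelial cells all 14 were higher, where 11.6% of genes were higher and 13.3% lower.

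Receptor signalling genes were higher than in other kept cells. Of 15 genes for Fc receptors and the adaptors and kinases behind them, 12 entered the test and all 12 were higher. Without the macrophages 8 of these would have entered it. After thinning, 6 of 7 tested were higher. Fcer1g, the Fc receptor gamma chain, reached 2082 and 1355 CPM compared with 5.67 and 1.71 in other kept cells (log2 fold change 9.00, SE 0.32). Fcgr3, a low-affinity antibody receptor, stood at 356 and 231 CPM compared with 3.07 and 0.855. Trem2, a lipid receptor that signals through DAP12, stood at 151 and 63.2 CPM with 6 and 1 UMIs in other kept cells. Lyn, a kinase of the same pathways, stood at 151 and 153 CPM compared with 5.03 and 3.03 (log2 fold change 5.23, SE 0.25).

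Part of that group was shared with the megakaryocyte lineage. Lyn stood at 197 and 191 CPM in megakaryocyte-lineage cells and did not pass against them (log2 fold change -0.36, SE 0.24, edgeR adjusted p = 0.385). Fcer1g stood at 581 and 530 CPM there, a level from which the macrophages differed by 1.58 on the log2 scale (SE 0.24), a call that was lost without the replicate block and with DESeq2. Fcgr1, Fcgr3 and Csf1r had 0 CPM in both megakaryocyte-lineage sums. Of the 12 genes, 7 were higher and 3 lower than in that lineage, and 3 higher and 2 lower of the 9 tested without either DUX-pulsed replicate.

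Complement genes other than those of the rule were led in level, after C1qc, by a receptor. C3ar1, the receptor for the C3a peptide, stood at 222 and 173 CPM compared with 1.90 and 1.55 in other kept cells (log2 fold change 6.83, SE 0.29). C3 itself, the central component, was at 0 in the macrophages of both replicates. Of 8 genes of the list tested, 6 were higher and 1, C3, was lower. The C3 call was lost with DESeq2, without the replicate block and without either replicate. After thinning, 2 of 5 were higher.

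Lysosomal proteases were mixed. Of 20 lysosomal genes tested, 12 were higher and 2 lower, and 6 did not pass. Ctsb stood at 1422 and 1302 CPM compared with 219 and 162 (log2 fold change 2.84, SE 0.24). Ctsd stood at 934 and 518 compared with 253 and 215 CPM, and Ctsz at 766 and 545 compared with 312 and 167. Ctss, a protease of antigen-presenting cells, stood at 96.8 and 68.2 CPM against 3 and 2 UMIs in other kept cells. The lower genes were Ctsl and Ctsh, both cathepsins. Ctsl stood at 678 and 315 CPM compared with 2259.9 and 1152, and Ctsh at 11.3 and 2.53 compared with 408 and 153. Lamp1, a lysosome membrane protein, did not pass at 580 and 516 CPM compared with 435 and 337 (log2 fold change 0.51, SE 0.23, edgeR adjusted p = 0.0703), though it passed under 5 of 12 alternatives.

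Of 13 scavenger and phagocytic receptors, 9 were higher and 1 lower than in other kept cells, and 7 higher and 1 lower than in endothelial cells. Mrc1, the mannose receptor, stood at 121 and 229 CPM compared with 0.148 and 0.155 in other kept cells (log2 fold change 9.99, SE 0.38). Stab1, which clears modified lipoproteins, stood at 96.4 and 120 CPM compared with 0.413 and 0.363. Endothelial cells (by 4 or more of Cdh5, Pecam1, Emcn, Cldn5, Esam and Tie1) had Stab1 at 81.5 and 108 CPM, and the difference there was 0.20 on the log2 scale (SE 0.25, edgeR adjusted p = 0.648). Mrc1 in endothelial cells stood at 12.1 and 19.8 CPM, and the difference from macrophages was 3.42 (SE 0.32). That Mrc1 call was lost when cells were thinned to 5000 UMIs. In replicate 2, 80.7% of macrophage Mrc1 UMIs came from 1 cell. The lower gene in both comparisons was Tyro3. The 9 became 5 and 7 without replicates 1 and 2, and 4 with DESeq2 or after thinning. Against endothelial cells the 7 became 3 after thinning.

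Lipid genes did not move together. Lpl, lipoprotein lipase, stood at 558 and 317 CPM compared with 48.2 and 63.1 (log2 fold change 3.0, SE 0.23). Apoe, the lipid carrier of many macrophages, was lower at 934 and 645 CPM compared with 3602 and 2369 in other kept cells (log2 fold change -1.91, SE 0.25), and higher than the 34.2 and 32.8 CPM of megakaryocyte-lineage cells. Of 17 genes for lipid handling tested, 6 were higher, 2 lower and 9 did not pass. Spp1, osteopontin, stood at 738 and 115 CPM in macrophages, carried by 17 and 9 cells, with 34.4% and 62.6% of its UMIs in a single cell of each replicate. DESeq2 did not call it.

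Several chemokines stood far above their level in other kept cells. Ccl3 stood at 661 and 521 CPM compared with 3.81 and 0.388 in other kept cells, and had a UMI in 50 and 11 macrophages. Ccl4 stood at 463 and 220 CPM compared with 2.39 and 0.104, and Ccl6 at 179 and 105 compared with 0.339 and 0.0777. Ccl2, a monocyte attractant, stood at 150 and 29.1 CPM and was carried by 19 and 3 cells. Of 16 chemokines and receptors tested, 11 were higher and 4 lower (Cxcl10, Cxcl12, Cxcl16 and Cxcr4). Without the macrophages 10 would have been tested, of which 5 were higher; the others, Ccl4 and Ccl6 among them, had to be. The 11 became 5 and 8 without replicates 1 and 2, 5 after thinning and 3 with DESeq2, which called none of Ccl2, Ccl3, Ccl4 and Ccl6. The 4 lower became 2 without either replicate.

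Among cytokines, the inflammatory gene Il1b stood at 38.7 and 84.7 CPM with a UMI in 15 and 5 macrophages, and 4 and 1 UMIs in all other kept cells. Tgfb1 stood at 252 and 176 CPM compared with 33.8 and 40.6 in other kept cells (log2 fold change 2.55, SE 0.24). It was higher still in megakaryocyte-lineage cells, at 1214 and 967 CPM. Igf1 stood at 98.2 and 65.7 CPM compared with 1.67 and 1.86 in other kept cells (log2 fold change 5.60, SE 0.27) and 162 and 270 in endothelial cells. The fall of Igf1 against endothelial cells, by 1.3 on the log2 scale (SE 0.24), was not called without replicate 2. Of 13 cytokine and growth factor genes, 8 were higher and 4 lower than in other kept cells, Il1b and Tnf having entered the test through the macrophages; the 8 became 3 and 6 without replicates 1 and 2, 5 with DESeq2 and 3 after thinning.

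Pf4, platelet factor 4, shows how a few cells can carry a gene. It stood at 416 and 562 CPM in macrophages, compared with 5.82 and 4.04 in other kept cells and 13535 and 25853 in megakaryocyte-lineage cells. Only 23 of 59 and 5 of 16 macrophages had a Pf4 UMI, and 1 cell in each replicate held 56.7% and 97.1% of them. Of 12 megakaryocyte genes outside the gate, Pf4 included, all 12 were higher in macrophages than in other kept cells. This count was 7 without the cells that met another gate and 5 without replicate 1. The list made up 0.183% and 0.159% of the UMIs of the macrophages, and 5 of its genes were at 0 in replicate 2. In megakaryocyte-lineage cells all 12 were higher than in macrophages. The part of megakaryocyte RNA in these values was not tested. Of 12 erythroid genes outside the gate 10 were higher in macrophages than in other kept cells, and 4 without the cells that met another gate. Without replicate 1, 2 were higher and 4 lower. In replicate 1, 63.8% of their UMIs came from 1 cell.

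The transcription factors of the myeloid lineage were present at high levels. Spi1 stood at 396 and 359 CPM compared with 1.80 and 0.725 (log2 fold change 8.23, SE 0.29) and had a UMI in 57 and 15 macrophages. Irf8 stood at 175 and 176 CPM compared with 2.29 and 1.37. Maf, a factor of resident macrophages, stood at 406 and 555 CPM compared with 34.1 and 32.3 (log2 fold change 3.84, SE 0.23), and was at 0 and 2.73 CPM in megakaryocyte-lineage cells. Mef2c stood at 665 and 882 CPM compared with 74.8 and 95.5, and Cebpb at 273 and 284 compared with 46.8 and 46.1. Of 22 factors tested, all of which would have entered the test without the macrophages, 17 were higher and 2, Klf4 and Id3, lower. Without replicate 1 the counts were 15 and 0.

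Runx1, which is required for blood to form from endothelium, stood at like levels in macrophages and the megakaryocyte lineage. It stood at 174 and 244 CPM in macrophages and 215 and 194 in megakaryocyte-lineage cells (log2 difference 0.04, SE 0.24, edgeR adjusted p = 1), and at 16.0 and 7.72 in other kept cells. Lmo2, a partner of early blood factors, stood at 258 and 307 CPM compared with 361 and 344 in megakaryocyte-lineage cells. Cd34, a marker of blood progenitors and endothelium, stood at 170 and 138 CPM in macrophages, 232 and 239 in endothelial cells and 3.51 and 4.43 in other kept cells. Kit, the stem cell factor receptor, was at 1.80 and 1.26 CPM, below the 30.5 and 23.4 of other kept cells (log2 fold change -4.01, SE 0.49). Of 18 progenitor genes tested, 9 were higher than in other kept cells and 5 lower. The 5 became 3 and 2 without replicates 1 and 2.

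**Figure D3:**
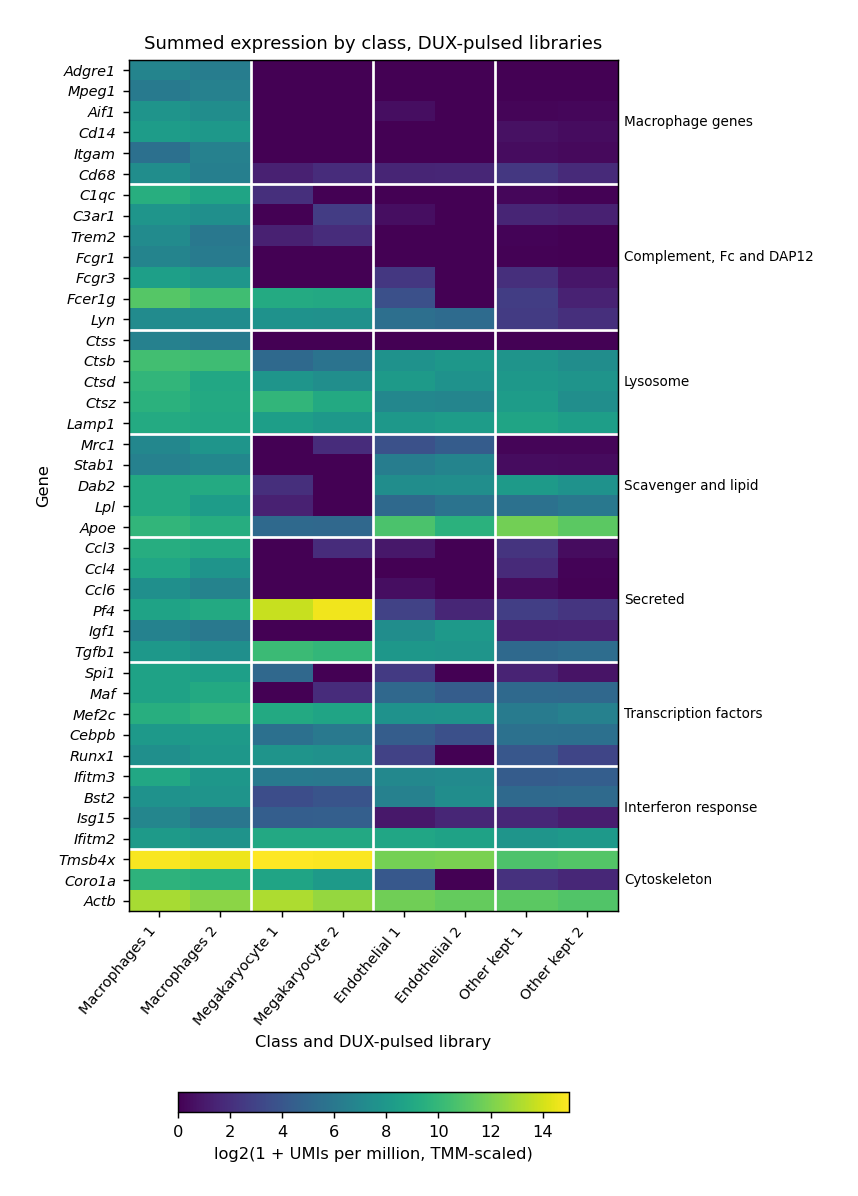
Summed expression of named genes in macrophages, megakaryocyte-lineage, endothelial and other kept cells of DUX-pulsed replicates 1 and 2, as log2(1 + CPM), with genes grouped by role. Adgre1, Mpeg1, Aif1 and Cd14 are near 0 outside the macrophages, while Lyn and Runx1 in megakaryocyte-lineage cells and Stab1 in endothelial cells stand at like levels.

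Genes used to tell macrophages of different tissues apart gave a mixed picture. P2ry12, a purine receptor of microglia, stood at 72.1 and 48.0 CPM compared with 0.103 and 0.104 and had a UMI in 45 and 12 macrophages. Tmem119, a marker of mature microglia, did not pass, at 9.01 and 7.58 CPM compared with 6.67 and 10.4 (log2 fold change -0.07, SE 0.54, edgeR adjusted p = 0.938). Sall1, a factor of microglia, had a UMI in 1 and 0 macrophages. Of 15 microglia-associated genes tested, 9 were higher and 3 lower, with 5 of the 9 entering the test through the macrophages; the 9 became 4 without either replicate. The 3 lower became 1 and 2.

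Genes linked to yolk sac and resident macrophages were higher than in other kept cells in 10 of 11 tested, Folr2 being the exception. The 10 included Lyve1 and Pf4, the latter held mostly by 1 cell in each replicate. Against megakaryocyte-lineage cells 8 were higher and 1, Pf4, lower. Against endothelial cells 7 were higher and 1, Igf1, lower, while Folr2, Lyve1 and Stab1 did not pass. Cd163, Cbr2, Cd209f and Vsig4 of the list were not in the deposited table. F13a1, a clotting factor subunit of resident macrophages, stood at 277 and 445 CPM compared with 0.103 and 0.337 (log2 fold change 10.76, SE 0.34). Selenop stood at 364 and 561 CPM compared with 75.8 and 73.1, and Dab2 at 554 and 574 compared with 287 and 200. The Dab2 call was lost with DESeq2. Timd4, a receptor of long-lived resident macrophages, had a UMI in 4 and 0 cells. Lyve1 had a UMI in 3 and 1 cells, and the single cell of replicate 2 gave all of its 92.3 CPM there.

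Markers of circulating monocytes and granulocytes differed from gene to gene. Ccr2, a chemokine receptor of monocytes, stood at 59.4 and 80.9 CPM, in 30 and 7 macrophages, with 10 and 1 UMIs in other kept cells. Plac8 stood at 255 and 243 CPM compared with 106 and 58.6 (log2 fold change 1.57, SE 0.22). DESeq2 called neither. Ly6c2 and Flt3 had no UMI in any macrophage, Mpo had a UMI in 2 and 2 cells, and Myb in 5 and 1. Vcan was lower than in other kept cells, at 19.4 and 36.7 CPM compared with 276 and 459. Of 6 genes of the list tested, 4 were higher and 1 lower, and 2 higher without either replicate. Ccr2 and Csf3r entered the test through the macrophages and had to be higher.

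Antigen presentation genes took 0.0227% and 0.0142% of macrophage UMIs, compared with 0.00380% and 0.00463% in other kept cells. Cd86, a co-stimulatory ligand, stood at 80.2 and 45.5 CPM with 10 and 6 UMIs in other kept cells, and entered the test through the macrophages. Cd74, the invariant chain, stood at 74.3 and 34.1 CPM compared with 0.590 and 0.466, and 32.7% and 63.0% of it came from 1 cell in each replicate. DESeq2 did not call it. H2-Ab1, a class II chain, stood at 21.6 and 27.8 CPM compared with 23.2 and 29.6 (log2 fold change -0.10, SE 0.32, edgeR adjusted p = 0.839). H2-Aa had a UMI in 4 and 0 macrophages. Of 8 genes of the list tested, 3 were higher and 1, Cd40, lower. Cd40 had no UMI in the macrophages of either replicate, and its call was lost without replicate 1.

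Interferon-response genes were higher in the macrophages almost as a block. Of 20 tested, 19 were higher than in other kept cells and 0 lower, 17 of the 19 testable without the macrophages; the count was 12 and 18 without replicates 1 and 2, and 13 after thinning. Ifitm3, an antiviral membrane protein, stood at 514 and 240 CPM compared with 19.8 and 21.2 (log2 fold change 4.18, SE 0.25). Isg15, a ubiquitin-like protein, stood at 117 and 59.4 CPM compared with 2.21 and 1.32 (log2 fold change 5.64, SE 0.28). Bst2 stood at 201 and 220 CPM compared with 34.5 and 36.02. Ifitm2 was the gene that did not pass, at 290 and 203 CPM compared with 225 and 282 (log2 fold change -0.04, SE 0.23, edgeR adjusted p = 0.916). Against megakaryocyte-lineage cells 16 were higher and 1 lower, and against endothelial cells 18 and 1. Without replicate 1 these counts fell to 3 higher and 2 lower, and to 8 and 2; without replicate 2 they were 13 and 0, and 16 and 0.

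Of 12 oxidative burst genes, 8 were higher than in other kept cells and 0 lower, and 7 were higher and 2 lower than in megakaryocyte-lineage cells. Gpx1, a glutathione peroxidase, stood at 1018 and 873 CPM compared with 216 and 170, and Cyba, the membrane partner of Cybb, at 856 and 559 compared with 182 and 131. Of 18 cytoskeleton and migration genes, 14 were higher and 1, Itga6, lower than in other kept cells, and 10 higher and 3 lower than in megakaryocyte-lineage cells. Tmsb4x, which binds free actin, reached 29252 and 25194 CPM compared with 1811 and 1990 in other kept cells and 32143 and 30282 in megakaryocyte-lineage cells. Its difference from the latter was -0.19 on the log2 scale (SE 0.26, edgeR adjusted p = 0.801). Iron genes included Fth1, the ferritin heavy chain, at 6919 and 4339 CPM compared with 1826 and 1128, and Hmox1, haem oxygenase, at 161 and 130 compared with 66.3 and 36.2.

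Many macrophages carried cell cycle RNA. Mki67 stood at 335 and 321 CPM compared with 143 and 114 in other kept cells (log2 fold change 1.36, SE 0.22), with a UMI in 37 and 8 macrophages. Top2a did not pass, at 351 and 270 CPM compared with 254 and 255 (log2 fold change 0.27, SE 0.22, edgeR adjusted p = 0.398). Of 18 genes each for S phase and for G2 and M phases, 7 and 3 were higher than in other kept cells. Lower were 0 and 1, the latter Cenpf. Over all genes tested, 12.7% were higher and 19.4% lower. The 7 became 3 without replicate 2, 4 without the replicate block, 3 after thinning and 2 with DESeq2. The 3 became 1 and 2 without replicates 1 and 2, and 1 with DESeq2. The 18 G2 and M genes took 0.0797% and 0.110% of the UMIs of the median macrophage, with a range over cells from 0 to 0.869% and from 0.00882 to 0.465%. In other kept cells the medians were 0.0713% and 0.0392%. Cells with 0.2% or more numbered 23 of 59 and 6 of 16 macrophages, and 686 of 1874 and 377 of 1259 other kept cells. In endothelial cells the medians were 0.0268% and 0.00970%, and 15 and 14 of the 18 genes for S and for G2 and M were higher in macrophages than there. The 15 became 18 and 2 without replicates 1 and 2, and 4 without the replicate block or with DESeq2. The 14 became 7 without either replicate.

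The genes of the surrounding tissues were low in macrophages next to other kept cells, which include those tissues. All 14 cardiomyocyte and 15 endoderm genes were lower than in other kept cells, as were 13 of 14 mesenchyme genes. The 13 became 6 with DESeq2 and 8 without the replicate block. Ttr, an endoderm transport protein, stood at 15.3 and 11.4 CPM compared with 1684 and 1535. Against megakaryocyte-lineage cells, 6 cardiomyocyte, 8 mesenchyme and 2 endoderm genes were higher, and 2, 0 and 0 lower. Against endothelial cells these counts were 7, 5 and 0 higher, and 1, 3 and 7 lower. Mesenchyme genes made up 0.133% of macrophage UMIs in replicate 2, of which 90.2% came from the 1 cell named above, and 0.0269% in replicate 1. Of the cardiomyocyte UMIs in replicate 1 macrophages, 72.5% came from 1 cell.

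The cells were next described by the C1q chains in which they had a UMI. In replicate 1, 8 cells had neither C1qa nor C1qb, 13 had C1qb alone and 38 had both. In replicate 2 there were 4, 5 and 6 such cells, and 1 with C1qa alone. Depths were similar across the groups in replicate 1, with medians of 38050, 32693 and 33230 UMIs, whereas in replicate 2 they were 47616, 30175 and 60819.5. The genes below were chosen after their values were seen, and no test was made, because the grouping uses genes of the rule.

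Some genes, shown here for their order, stood higher in each further group of both replicates. Mrc1 stood at 0, 2.06 and 189 CPM over the 3 groups in replicate 1 and at 0, 82.6 and 449 in replicate 2, where 1 cell gave 85.9% of the last value. Stab1 stood at 0, 16.5 and 146 CPM, and at 0, 105 and 214, the 105 from 1 cell. Aif1, an actin-binding protein of macrophages, stood at 3.35, 107 and 299 CPM, and at 5.34, 143 and 288. Dab2 followed the same order, at 57.0, 387 and 726 CPM and at 74.8, 556 and 965, as did F13a1, at 20.1, 189 and 366 and at 58.8, 285 and 801.

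Fcer1g, Csf1r, Cx3cr1, Adgre1, Trem2, Selenop and Csf2rb had that order in both replicates too. Some other myeloid and phagocyte genes did not. With both chains, Cd14, Maf and Lyz2 stood lower than with C1qb alone in replicate 1, Maf only slightly (452.6 compared with 454.8 CPM). In replicate 2 the same held for Fcgr1, Fcgr3 and Fcrls. Spi1 stood at 328, 284 and 455 CPM in replicate 1 and 390, 436 and 405 in replicate 2. Tyrobp stood at 1025, 1414 and 1714 CPM in replicate 1 and 1501, 1277 and 1258 in replicate 2. Lmo2 had the opposite order to Mrc1, at 529, 305 and 188 CPM and at 620, 436 and 180. Cd34 stood at 194, 247 and 141 CPM and at 342, 203 and 39.7. In cells without C1qa and C1qb the rule required Csf1r, Cx3cr1, Tyrobp and Laptm5, so their presence there was fixed in advance. Outside the rule, Ptprc, Spi1 and Fcer1g had a UMI in 8 of 8 and 4 of 4 of these cells. Adgre1 had a UMI in 2 and 2 of them, Trem2 in 1 and 0, and Aif1 in 1 and 1. Plac8 had a UMI in 7 and 4, and Ccr2 in 7 and 2.

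**Figure D4:**
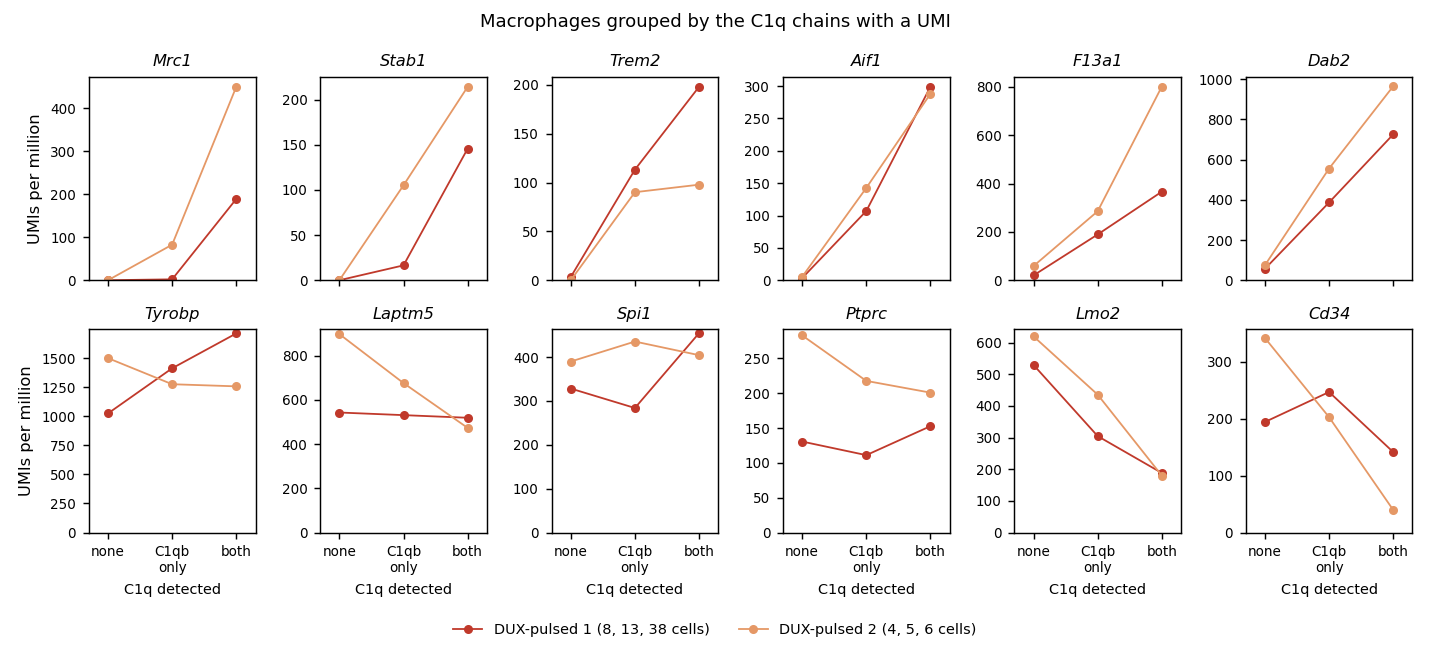
Level of selected genes (CPM, summed over cells) in macrophages with no UMI of C1qa or C1qb, with C1qb alone, and with both, for DUX-pulsed replicates 1 (8, 13 and 38 cells) and 2 (4, 5 and 6 cells). Mrc1, Stab1, Trem2, Aif1, F13a1 and Dab2 stand higher in each further group in both replicates, and Lmo2 lower.

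Finally, the kept cells that were not macrophages were compared between DUX-pulsed and control embryoid bodies, 2 libraries against 2, for the factors that macrophages need. Of 16022 genes tested with edgeR, 14.3% were higher and 10.6% lower in DUX-pulsed cells. These sums mix all cell types. Endoderm genes took 0.853% and 0.742% of the UMIs of other kept cells in the DUX-pulsed libraries, and 2.01% and 2.08% in the controls. Cardiomyocyte genes took 0.829% and 1.07%, and 0.184% and 0.173% in the controls. A different mix of cells and different levels per cell cannot be told apart here. Of 17 growth factors and attractants, 6 were higher and 2 lower. The 6 became 4 and 3 without control replicates 1 and 2, and with a limit of 5% mitochondrial counts 1 was higher and 1 lower. Csf1, the main macrophage growth factor, stood at 11.5 and 15.8 CPM in DUX-pulsed and 5.502 and 7.17 in control cells (log2 fold change 1.10, SE 0.24, edgeR adjusted p = 0.0248). The groups did not overlap, but the call was lost without control replicate 1 and with the 5% limit. Il34, the other ligand of Csf1r, was near its detection limit at 0.198 and 0.0848 CPM compared with 0.272 and 0.279, and did not pass (edgeR adjusted p = 0.259). Cxcl12, an attractant chosen after its values were seen, stood at 61.8 and 103 CPM compared with 33.4 and 37.9 (log2 fold change 1.21, SE 0.26); the call was lost without either control replicate and with the 5% limit. Apoe was lower, at 4097 and 2609 CPM compared with 10641 and 7960 (log2 fold change -1.47, SE 0.28).

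Many interferon-response genes were lower in the DUX-pulsed sums outside the macrophages than in the control sums. The part that the mix of cells had in this was not tested. Of 18 tested, 0 were higher and 10 lower in DUX-pulsed than in control cells. Bst2 stood at 42.3 and 44.2 CPM compared with 92.3 and 106 (log2 fold change -1.20, SE 0.15, edgeR adjusted p = 0.00549). Isg15 stood at 3.06 and 2.18 CPM compared with 7.34 and 5.65, a call that was lost without control replicate 1. Usp18, chosen after its values were seen, stood at 2.69 and 2.35 CPM compared with 20.5 and 21.0 (log2 fold change -3.04, SE 0.18). Across the alternatives for these cells 8 to 11 were lower, and 1 was higher without DUX-pulsed replicate 1. Of 18 progenitor genes 7 were higher and 0 lower; 11 were higher without control replicate 1, and 5 of 17 without control replicate 2. Spi1 did not pass at 3.20 and 2.49 CPM compared with 0.837 and 0.0969 (edgeR adjusted p = 0.0712), but passed with DESeq2 and with the replicate block. The sums still held the cells with exactly 3 macrophage markers. Spi1 had a UMI in 8 of 8 and 3 of 3 of these in the DUX-pulsed libraries, and in 2 of 2 and 0 of 1 in the controls. Their part in the Spi1 and progenitor values was not tested.

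**Figure D5:**
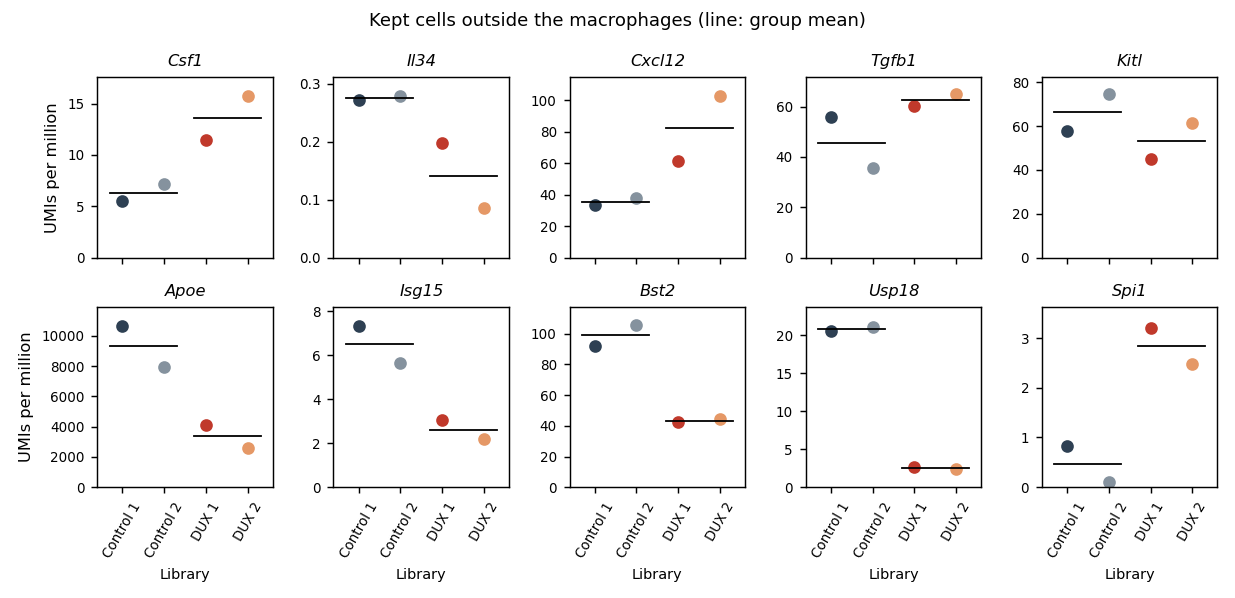
Level of selected genes (TMM-scaled CPM) in kept cells outside the macrophages of each library, with group means as lines. Csf1 and Cxcl12 stand higher and Apoe, Isg15, Bst2 and Usp18 lower in both DUX-pulsed libraries than in both controls.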

How the data were processed

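Single-cell RNA libraries (10x Genomics) were made from 2 DUX-pulsed and 2 control embryoid body samples. The deposited table holds counts of UMIs for 20284 genes in 10090 cells; Cell Ranger 2.2.0, STAR and mm10 are named without a role in the submitters' processing notes. Kept cells gave 36462169 to 96344329 UMIs per library. Members were selected by the 6-gene rule, no doublet caller was run, and 0 to 2 droplet barcodes were shared by any 2 libraries, none with a macrophage.

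UMIs were summed per class and library where a class had at least 10 cells, and genes with 10 counts in at least 2 sums and 40 in all were tested with edgeR 4.0.16 in R 4.3.3 (TMM, quasi-likelihood, library as a replicate block for comparisons of classes, no block between groups). The classes fit used 17 sums with 6 residual degrees of freedom, the fit between groups 4 with 2. Median prior degrees of freedom were infinite in the classes fit and 3.855 in the fit between groups. The edgeR SE was the absolute log2 fold change divided by the square root of the F statistic. In the classes fit it therefore rests on a spread shared across genes and does not measure each gene's own replicate spread. DESeq2 1.42.0, other thresholds, thinning and left-out libraries were alternatives. Shares were tested by an exact permutation test (scipy 1.17.1). Both edgeR fits, but not the permutation test, were checked on counts simulated from a shared profile.

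The members, the 34 gene lists and the tests were chosen with earlier results of these data known. Named genes were the 6 of the rule, the 4 highest in macrophages of each list, a fixed set of known markers, the 15 largest fold changes with at least 50 CPM, and the 6 with the highest share of UMIs in macrophages among genes with 500 or more; others, such as Cd3g, Il1b, Cxcl12, Usp18 and those of the C1q groups, were chosen after their values were seen. Positions are from GENCODE on mm10 and promoters from RefSeq. A few genes are not reported here.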

Additional observations from a re-analysis of the deposited data

Results flagged for a closer look

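Cells removed for over 10% mitochondrial counts or under 500 genes were left out of the shares and tests, other than the share with no mitochondrial limit. Some met the 6-gene rule for macrophages. They numbered 4 among 175 removed cells in DUX-pulsed replicate 1 and 2 among 255 in replicate 2, and 0 among 395 and 0 among 389 in control replicates 1 and 2.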

How the results depend on the processing

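The macrophage share in the DUX-pulsed libraries exceeded that of the controls by 2.02 percentage points, and by 1.58 to 2.27 over the other marker, depth and mitochondrial thresholds. It was 1.18 without DUX-pulsed replicate 1 and 2.86 without replicate 2. After thinning to 5000 UMIs a cell, which moved the median gene by -0.13 on the log2 scale against other kept cells, 735 genes were higher and 1184 lower than in those cells, 396 and 402 against megakaryocyte-lineage cells, and 512 and 721 against endothelial cells. With DESeq2, 2054 genes were lower than in other kept cells, and 1091 were higher and 1303 lower than in megakaryocyte-lineage cells (1642 and 1238 with edgeR). With libraries left out in turn, 997 to 2124 genes were higher and 1594 to 3157 lower than in other kept cells, 630 to 1698 and 714 to 1279 against megakaryocyte-lineage cells, and 862 to 1944 and 1165 to 2189 against endothelial cells. Outside the macrophages, DUX-pulsed against control, these ranges were 1051 to 2776 higher and 608 to 2152 lower, and the 5% mitochondrial limit gave 1152 and 954. Same-numbered libraries of the groups share only a number (correlation of their deviations 0.462); a replicate block gave 3544 higher and 3174 lower genes there. Without the replicate block the comparisons of classes gave 1780 higher and 2903 lower, 1297 and 1057, and 1521 and 1842 genes. Among genes that did not pass, signs turned for Tmem119 (0.13 after thinning, -0.47 to 0.44 with a library left out), Ifitm2 (0.13 with 5 of 6 markers, -0.48 to 0.37 with a library left out) and Runx1 against megakaryocyte-lineage cells (-0.045 with DESeq2 size factors, -0.015 with DESeq2, -0.30 to 0.27 with a library left out). The cause was not tested. The number of macrophages, 59 and 16, limits what could be called.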
